A study of Mus musculus with 58 samples.

Results

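PU.1 binding in hematopoietic stem cells (HSCs) of old mice refed after lifelong caloric restriction (OCRRF) was compared with that in mice still restricted (OCR). The members were the 14395 PU.1 peaks that the authors called in 4 ChIP-seq libraries, OCR replicates 1 and 2 and OCRRF replicates 1 and 2, of 20341 PU.1 peaks in all 6 PU.1 libraries and of 50 samples with a file in the series. Replicate 1 is labelled with a Thermo antibody, and the name of the deposited data of replicate 2 gives an abcam antibody, so the number of a replicate is also its antibody. Diets were therefore compared within each replicate number, by overlap of peaks and at equal numbers of peaks.

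All mice were male wild-type C57BL/6 and 24 to 26 months old when used. OCR mice had received 60% of the ad lib ration (40% restriction) from an age of 3 to 4 months, OCRRF mice had the same restriction and then ate ad lib for the last 4 weeks, and ad lib (OAL) mice were never restricted. HSCs were sorted as lineage-negative, Sca-1+, c-Kit+ cells that were CD34-, Flk2- and CD150+, and 20000 sorted HSCs with bacterial carrier went into each PU.1 library. The design has 1 library per diet and antibody, neither an input library nor a spike-in is named in the sources used here, and the number of mice behind a library is not given. No test of a diet difference in PU.1 is therefore possible within an antibody, and 2 libraries against 2 could not reach a two-sided exact permutation p below 0.333.

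PU.1, encoded by Spi1, is an ETS family transcription factor. It binds purine-rich DNA with a GGAA core and acts with partners such as IRF, RUNX, C/EBP and AP-1 factors. It is needed for myeloid and B lymphoid development and limits the cycling of HSCs, and it is opposed by GATA factors in erythroid cells.

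The sites were built from peaks that both antibodies called in OCR HSCs. A site is called kept where both OCRRF libraries had a peak that overlapped it by at least 1 bp, and lost where neither had one. Gained sites were called by both antibodies in OCRRF HSCs and by neither in OCR HSCs. The sequences show the 101 bases around the middle of a site for some of the strongest lost sites, for kept sites at known hematopoietic genes, and for a gained site. They come from the RefSeq GRCm38 (mm10) genome, plus strand, 5′ to 3′. Capitals mark each GGAA core on either strand (TTCC on the strand printed) and the whole of the longer PU.1 motif GAGGAAGT or its reverse complement ACTTCCTC.
Meis1 kept, chr11:18970121-18970221: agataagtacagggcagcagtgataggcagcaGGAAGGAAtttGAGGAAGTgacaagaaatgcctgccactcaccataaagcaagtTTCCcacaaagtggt
Tyrobp kept, chr7:30394549-30394649: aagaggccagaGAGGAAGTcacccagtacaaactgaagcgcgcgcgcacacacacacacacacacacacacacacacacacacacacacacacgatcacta
Mecom kept, chr3:30105185-30105285: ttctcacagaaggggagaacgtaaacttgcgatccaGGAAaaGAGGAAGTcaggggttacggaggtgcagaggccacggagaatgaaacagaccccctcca
Mecom lost, chr3:30258881-30258981: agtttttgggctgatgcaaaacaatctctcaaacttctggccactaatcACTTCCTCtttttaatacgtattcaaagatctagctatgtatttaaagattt
Antxr2 lost, chr5:98016989-98017089: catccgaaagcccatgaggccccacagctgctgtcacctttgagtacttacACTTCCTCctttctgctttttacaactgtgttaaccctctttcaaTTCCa
Eefsec lost, chr6:88435734-88435834: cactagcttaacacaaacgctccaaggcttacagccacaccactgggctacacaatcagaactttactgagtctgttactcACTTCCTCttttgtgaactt
Mtmr10 lost, chr7:64249848-64249948: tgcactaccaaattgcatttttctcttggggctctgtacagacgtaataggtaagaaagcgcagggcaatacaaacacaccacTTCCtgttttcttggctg
Fosb lost, chr7:19316609-19316709: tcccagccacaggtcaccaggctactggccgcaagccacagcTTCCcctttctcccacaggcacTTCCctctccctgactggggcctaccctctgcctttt
Dapp1 gained, chr3:137968881-137968981: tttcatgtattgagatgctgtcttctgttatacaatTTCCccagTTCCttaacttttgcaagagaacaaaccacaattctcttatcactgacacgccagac

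The Meis1, Tyrobp, Antxr2 and Eefsec stretches and both Mecom stretches held the longer motif, and those of Mtmr10, Fosb and Dapp1 held cores only. The presence of the motif did not separate these kept and lost sites.

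More PU.1 peaks were called in OCR than in OCRRF HSCs with both antibodies. With replicate 1 there were 5464 peaks in OCR and 2817 in OCRRF (51.6% of the OCR number), and with replicate 2 there were 3852 and 2262 (58.7%). OAL HSCs had 3046 and 2900 peaks. At the same −log10 p of 6.02 in all libraries the numbers were 5345 and 2785 for replicate 1 and 3797 and 2262 for replicate 2. Peaks with a fold enrichment of at least 10 over the local background numbered 1639 in OCR and 864 in OCRRF with replicate 1, and 1177 and 651 with replicate 2. The median fold enrichment over all called peaks was 8.13 in OCRRF against 7.86 in OCR for replicate 1 and 7.99 against 8.07 for replicate 2. At equal ranks by −log10 p OCRRF was lower. Around rank 500 the medians were 12.2 in OCRRF against 15.6 in OCR with replicate 1 and 11.1 against 13.7 with replicate 2. Peak widths were alike, at medians of 287 and 291 bp in OCR and 280 and 273 bp in OCRRF.

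The deposited peaks do not carry the number of tags behind each library. The study's reporting summary lists read totals for its PU.1 libraries but names no OCRRF library there, so relative depth was taken from the peaks. From the p-value and fold enrichment of each peak, the whole-number pileup (the fragments stacked at the summit) and the background were recovered for 100% of peaks. The lowest background, which scales with the number of tags, was 0.316 fragments in OCR and 0.312 in OCRRF for replicate 1, and 0.317 and 0.253 for replicate 2. For relative depth, this background was divided by the smallest peak width of the library, assumed to be its fragment length. By this measure OCRRF had 96.7% of the OCR tags with replicate 1 and 81.4% with replicate 2. The part of depth in the difference in peak number was not tested. A difference in PU.1 occupancy and one in the efficiency of the ChIP reaction cannot be told apart in these libraries.

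Most OCRRF peaks lay on OCR peaks, whereas about as many OCR peaks lay on an OCRRF peak as did not. Of the OCR peaks, 2480 of 5464 (45.4%, 95% Wilson interval 44.1 to 46.7) overlapped an OCRRF peak with replicate 1 and 1923 of 3852 (49.9%, 48.3 to 51.5) with replicate 2. These intervals cover counting error only. In the other direction, 88.0% and 85.1% of OCRRF peaks overlapped an OCR peak. Between the antibodies within OCR HSCs, 58.1% of replicate 1 peaks and 82.3% of replicate 2 peaks overlapped, and within OCRRF HSCs 61.1% and 76.2%.

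The overlap declined with the rank of the peak by −log10 p. Of the 500 highest OCR peaks, 99.8% with replicate 1 and 98.8% with replicate 2 had an OCRRF peak. At ranks 501 to 1000 the shares were 94.6% and 89.0%, at ranks 1001 to 2000 they were 72.2% and 56.5%, and at ranks 2001 to 3000 they were 38.9% and 29.9%. The lowest OCR peaks, from rank 4001 with replicate 1 and rank 3001 with replicate 2, were found in OCRRF at 13.7% and 14.1%. OCRRF peaks were found in OCR HSCs at 100% and 99.8% for ranks 1 to 500 and at 70.4% and 58.0% below rank 2000. The peaks without a partner were thus at the weak end in both diets, and there were more of them in OCR.

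**Figure D1:**
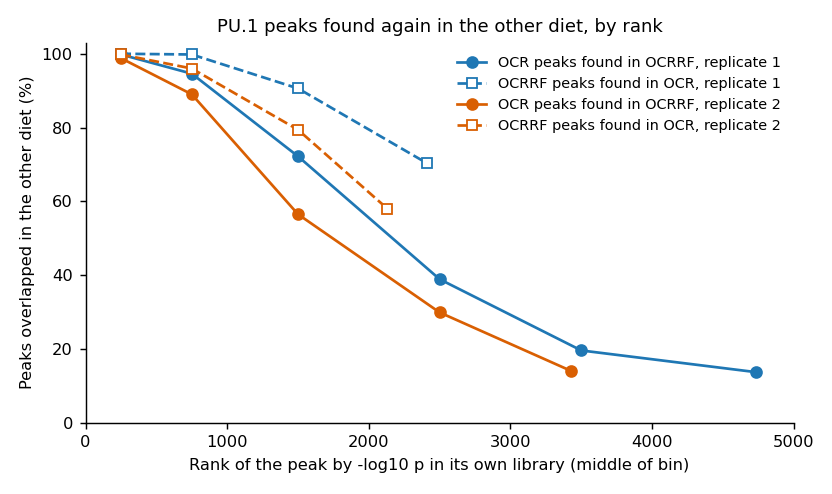
Share of OCR peaks that overlapped an OCRRF peak, and of OCRRF peaks that overlapped an OCR peak, in percent, by the rank of the peak by −log10 p, for each replicate number. Shares are 98.8% or higher for the 500 highest peaks in all 4 directions, and below rank 2000 the OCR peaks were found less often than the OCRRF peaks.

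With equal numbers of peaks, the diets differed about as much as the antibodies did. Among the 2262 highest peaks of each library, 74.0% of peaks were shared between OCR and OCRRF with replicate 1 and 70.7% with replicate 2. Between the antibodies, 75.7% were shared within OCR and 70.4% within OCRRF, so the diet values lay within the range of the antibody values. For the 500 highest peaks the diet shares were 78.0% and 72.8% and the antibody shares 75.8% and 72.8%. For the 1000 highest they were 77.7% and 73.6% across diets and 77.7% and 74.6% across antibodies.

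**Figure D2:**
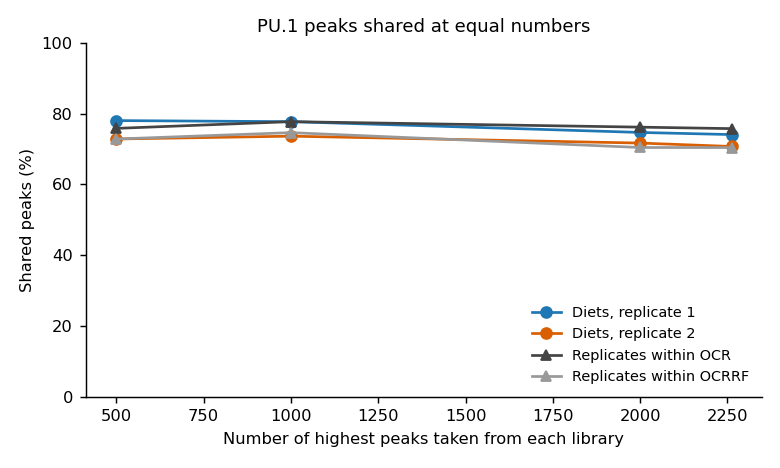
Share of peaks that overlapped, in percent, when the same number of the highest peaks was taken from both libraries, for the diet comparison within each replicate number and for the antibody comparison within each diet. At 2262 peaks the diet values of 74.0% and 70.7% lie between the antibody values of 75.7% and 70.4%.

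Sites called by a pair of libraries were compared in the same way. With 2262 peaks from each of the 4 libraries, 148 of 1697 OCR sites (8.72%) overlapped none of the peaks taken from either OCRRF library. Of these 148, 38 overlapped an OCRRF peak of lower rank and 110 overlapped no OCRRF peak. Of 1574 OCRRF sites, 82 (5.21%) overlapped none of the peaks taken from either OCR library. Of these 82, 76 overlapped an OCR peak of lower rank and 6 overlapped no OCR peak. The libraries differ in their number of lower peaks, and OCRRF replicate 2 had no more than 2262 peaks. Grouped by antibody instead, 106 of 1660 replicate 1 sites (6.39%) and 95 of 1582 replicate 2 sites (6.01%) lacked a partner among the peaks taken. Of these, 63 and 85 had one of lower rank. At this number the OCR share was above and the OCRRF share below both antibody shares. The same held with 2000 peaks, where the diet shares were 8.02% (OCR) and 4.53% (OCRRF) and the antibody shares 6.15% and 6.28%. It did not hold with 1000 or 500 peaks. With 1000 peaks from each library the diet shares were 5.88% (OCR) and 5.46% (OCRRF) and the antibody shares 5.49% and 4.83%, and with 500 peaks they were 5.42% and 4.55% against 7.11% and 5.95%.

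PU.1 sites common to the diets were lower in OCRRF HSCs. At the 1500 strongest OAL sites, which were chosen without either diet of the comparison, OCR peaks were called at 1488 with replicate 1 and 1460 with replicate 2 and OCRRF peaks at 1387 and 1321. Where both had a peak, the median ratio of OCRRF to OCR fold enrichment was 0.801 (quartiles 0.694 to 0.920) with replicate 1 and 0.830 (0.701 to 0.961) with replicate 2. The ratio was below 1 at 1197 of 1379 sites (86.8%) and at 1056 of 1298 sites (81.4%). Median pileups were 25 fragments in OCR and 17 in OCRRF for replicate 1, and 21 and 14 for replicate 2. The pileup divided by the lowest background of the library gave ratios of 0.690 and 0.866, so the size of the difference between OCRRF and OCR depended on the scaling and its direction did not. The ratio of replicate 2 to replicate 1 at the same sites was 0.895 within OCR and 0.927 within OCRRF as fold enrichment, and 0.831 and 1.06 as pileup over background. The gap between antibodies was thus smaller than that between diets as fold enrichment, but within OCR it was larger than the replicate 2 diet gap as pileup over background. Against OAL, the OCR ratios were 1.15 and 1.07 as fold enrichment and 1.34 and 1.26 as pileup over background. The OCRRF ratios to OAL were 0.929 and 0.895 as fold enrichment and 0.937 and 1.13 as pileup over background, so for replicate 2 the direction against OAL turned with the scaling. Sites are not replicates, so the shares describe these libraries.

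**Figure D3:**
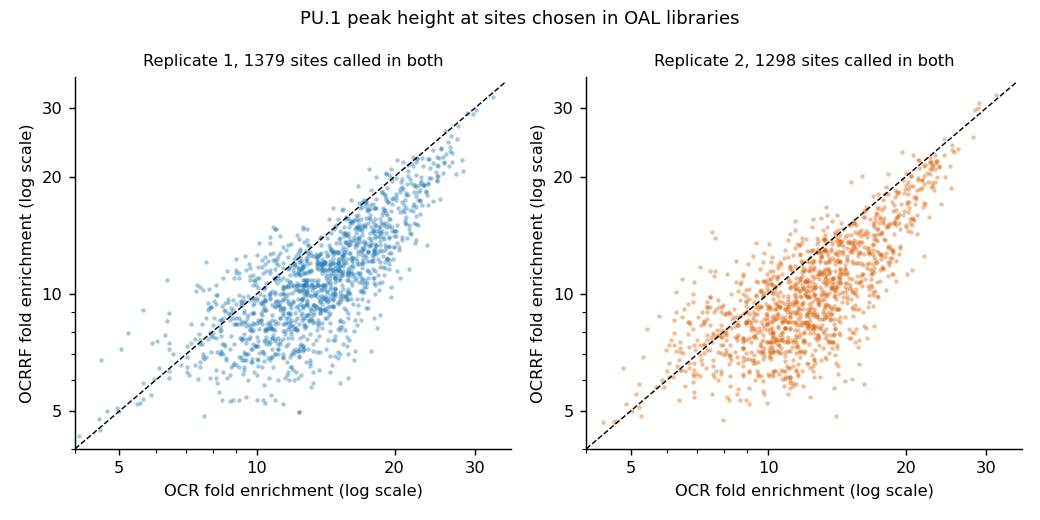
Fold enrichment of PU.1 peaks at the 1500 strongest OAL sites in OCR and OCRRF HSCs, on log axes, for each replicate number, 1 point per site with a peak in both diets. Most points lie under the diagonal, with median ratios of 0.801 and 0.830.

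Of the 3152 OCR sites that both antibodies called, 1584 (50.3%) were kept, 547 (17.4%) had an OCRRF peak with replicate 1 alone, 259 (8.22%) with replicate 2 alone, and 762 (24.2%) were lost. Of the 1703 OCRRF sites, 15 (0.881%) were gained. Most lost sites were weak. Lost sites had a median OCR pileup of 10 fragments (quartiles 8 to 12) with replicate 1 and 9 (8 to 11) with replicate 2, and kept sites had 23 (16 to 34) and 19 (14 to 27). No lost site was among the 500 highest peaks of both OCR libraries and 2 were among the 1000 highest of both, where 369 and 742 kept sites were. Among sites with an OCR pileup over 10 and up to 20 with both antibodies, 400 of 815 (49.1%) were kept and 139 (17.1%) were lost. Among those over 20 and up to 50, 482 of 492 were kept and 1 was lost. Among those over 50 and up to 200, 80 of 82 were kept and 1 was lost. A lost site is one without a call at this depth, and was not shown to be free of PU.1.

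**Figure D4:**
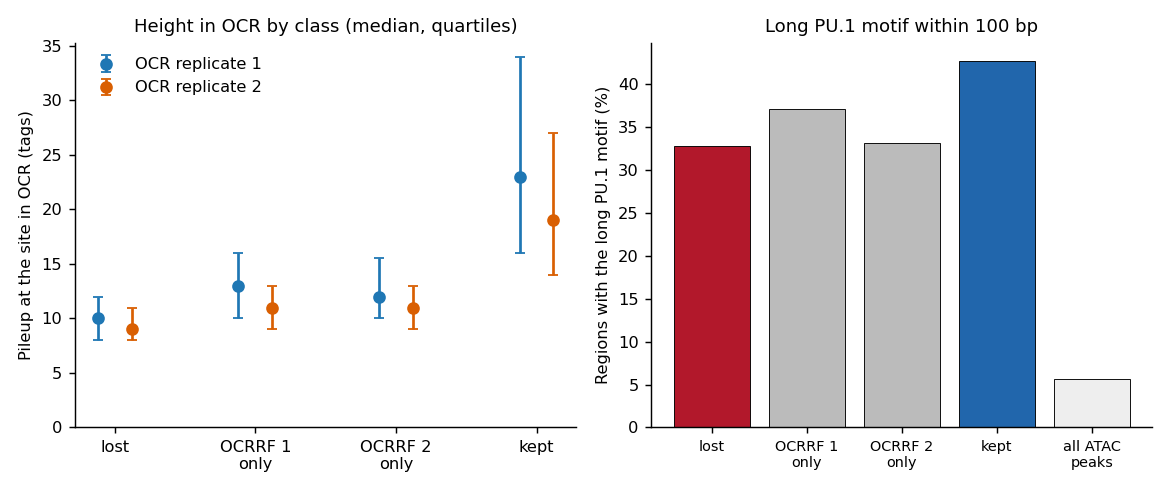
On the left, OCR pileup (fragments, labelled tags) at OCR sites by class, as points at the median with bars to the quartiles for each replicate number, with medians of 10 and 9 at lost and 23 and 19 at kept sites. On the right, the percent of sites with the longer PU.1 motif within 100 bp of the summit, which is 32.8% of lost and 42.7% of kept sites beside 5.65% of all ATAC-seq peaks.

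Lost and kept sites lay in the same kinds of places. A transcription start site (TSS) lay within 1 kb of 20.3% of lost and 18.2% of kept sites. Introns held 44.8% and 46.5%, intergenic sequence 45.7% and 45.8%, UTRs 7.74% and 5.81% and coding exons 1.84% and 1.96%. Within 50 kb of a protein-coding TSS lay 547 lost sites (71.8%), next to 534 genes. Masked repeats filled over 50% of the window of 100 bp on either side of the summit in 7.61% of lost and 6.76% of kept sites. The classes differed in OAL HSCs, where 47.9% of lost sites had no peak with either antibody, 33.9% had one with 1 antibody and 18.2% with both, against 88.6% of kept sites with both.

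The longer motif GAGGAAGT, searched on both strands within 100 bp of the summit, was in 250 of 762 lost sites (32.8%, 95% Wilson interval 29.6 to 36.2) and 677 of 1584 kept sites (42.7%, 40.3 to 45.2). It was in 5.65% of all 131918 ATAC-seq peaks in windows of the same length. Where present, its median distance from the summit was 15.5 bp in lost and 9 bp in kept sites. The core GGAA alone, which the longer motif contains, was in 99.3% of lost and 98.8% of kept sites and in 92.5% of ATAC-seq windows. Lost and kept sites of equal OCR pileup, 11 to 20 fragments, held the longer motif in 55 of 139 (39.6%) and 155 of 400 (38.8%). A further 5 motifs, chosen after seeing the data, were also searched on both strands. The composite ETS-IRF element, a GGAA core, 2 free bases and GAAA, was in 3.94% of lost, 5.93% of kept and 2.73% of ATAC-seq windows, and the RUNX sequence TGTGGT in 21.0%, 22.0% and 21.6%. The GATA sequence AGATAA, the AP-1 sequence TGANTCA and the C/EBP sequence TTGCNNAA were in 11.3%, 7.74% and 8.66% of lost sites, 10.6%, 8.21% and 9.79% of kept sites and 10.2%, 9.51% and 8.65% of ATAC-seq windows. A match is a description of the letters in the window.

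The 10 lost sites with the highest OCR ranks each had 14 or more fragments with both antibodies. The site tied to Fosb, an AP-1 subunit of the immediate early response, lay 6.6 kb upstream of it in intergenic sequence. Its pileup was 26 and 14 in OCR with replicates 1 and 2, 15 and 19 in OAL, and it had no OCRRF peak. Its sequence above holds 2 cores. The accessibility of this site was not lower in OCRRF. ATAC-seq gave 49.5, 48.1, 46.1 and 53.7 CPM (counts scaled to library size) in OCR and 63.1 and 58.3 in OCRRF, without overlap. The log2 fold change was 0.30 ± 0.07 (SE), with an adjusted p of 0.039 in edgeR, under the fold change of 1.5 required for a call. Fosb RNA was low, at 0.525, 0.665, 0.618 and 0.392 CPM in OCR and 1.25 and 1.38 in OCRRF, and the difference did not pass the test (adjusted p = 0.174, edgeR). In these bulk samples, fewer cells of a type and less RNA per cell cannot be told apart.

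The lost site tied to Mtmr10, a myotubularin-related protein, lay 37.8 kb upstream, in an intron of the neighbouring Trpm1, at chr7:64249773-64250109. Its pileup was 23 and 19 in OCR and 9 and 18 in OAL. Antxr2, an anthrax toxin receptor, had a lost site in an intron with 22 and 22 fragments in OCR and 15 and 17 in OAL. Eefsec, the selenocysteine elongation factor, had one in an intron 10.7 kb into the gene with 20 and 20 in OCR and 14 and 9 in OAL. All 3 sites thus had OAL peaks with both antibodies. The lost site with the highest single rank, 679 with replicate 1, lay in an intron of Rnf220, an E3 ubiquitin ligase, 52.2 kb from the nearest TSS, and had 25 and 16 fragments in OCR. Of the other lost sites of this group, those of Olfr446 (17 and 19 fragments), an olfactory receptor gene, and Mid1 (20 and 17), an E3 ubiquitin ligase, lay in a UTR and an intron of these genes. The last 3 lay over 50 kb from a TSS, in introns of Spon1 (19 and 15, nearest TSS Rras2), Zfp407 (17 and 14, nearest TSS Zadh2) and Sbf2 (17 and 18), the site in Sbf2 with its whole window in masked repeats.

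Among the 10 highest kept sites, 6 had nearly the same pileup in both diets, and 4 of these had over 50% of that window masked as repeats. The 6 sites, nearest to Gm10800, Gm10722, Gm10801, Rpusd4, Rab10 and Chl1, had 201 to 443 fragments in OCR and 202 to 451 in OCRRF with replicate 1. The highest pileups of a library, 443 to 451 in these 4 libraries, were close to 2 times its smallest peak width (444 to 454), the height of a stack in which each position and strand counts once. The 12 kept sites above 200 fragments had OCRRF to OCR pileup ratios of 1.01 and 0.981, whereas the ratios were 0.725 and 0.738 for the sites between 50 and 200 and 0.650 and 0.630 between 20 and 50. The kept site in an intron of Actr2, an actin nucleation subunit, 0.5 kb from its TSS, had 106 and 94 fragments in OCR and 93 and 67 in OCRRF. The others were nearest to Slc22a27 (160 and 146 in OCR, 105 and 95 in OCRRF), Sfi1 (167 and 145, 116 and 110) and Qpct (118 and 93, 92 and 81). The pileups of all 4, not scaled for depth, were lower in OCRRF with both antibodies.

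The 15 gained sites were weak, with OCRRF pileups of 5 to 11. Those with the highest ranks were nearest to Pomgnt2 (11 and 8), 4930544G11Rik (11 and 7), Dapp1 (9 and 8), Gm525 (10 and 8) and Dok2 (9 and 7). Dapp1 and Dok2 encode adaptor proteins of immune receptor signalling.

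PU.1 bound its own gene in both diets. A kept site on chr2:91070471-91070953 lay 25.4 kb upstream of the Spi1 TSS, 0.3 kb from that of Slc39a13, with pileups of 87 and 69 in OCR, 49 and 42 in OCRRF and 73 and 80 in OAL. A kept site on chr2:91082904-91083274, 13.0 kb upstream in an intron of a longer Spi1 transcript, had 31 and 15 in OCR, 17 and 10 in OCRRF and 16 and 9 in OAL. Its middle held 3 cores and no longer motif.
Spi1 kept, chr2:91083062-91083162: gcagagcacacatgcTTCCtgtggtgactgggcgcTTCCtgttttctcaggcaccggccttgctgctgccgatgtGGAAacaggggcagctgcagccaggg
Both sites were lower in OCRRF than in OCR with each antibody. Their ATAC-seq log2 fold changes of 0.13 (adjusted p = 0.416) and 0.20 (adjusted p = 0.489) did not pass the test in edgeR. Spi1 RNA was 66.6, 65.4, 60.1 and 59.6 CPM in OCR and 49.8 and 52.1 in OCRRF. The groups did not overlap, and the log2 fold change of -0.30 ± 0.13 (SE) did not pass the test in edgeR (adjusted p = 0.199), but did in DESeq2 (log2 fold change -0.39, adjusted p = 0.029).

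Few ATAC-seq peaks at PU.1 sites passed the test between the diets. An ATAC-seq peak overlapped 673 of 762 lost sites (88.3%) and 1491 of 1584 kept sites (94.1%). The test compared 4 OCR with 2 OCRRF libraries of 15721335 to 19558148 counts in peaks, and over all 123372 peaks tested 0.13% rose and 0.0908% fell in OCRRF. At lost sites 1 peak rose and 1 fell of 673 tested, and at kept sites 0 rose and 3 fell of 1485 tested in edgeR. DESeq2 called 1 and 1 at lost sites and 0 and 4 at kept sites. Unadjusted p-values under 0.05 were found for 42 higher and 72 lower peaks at lost sites and for 101 higher and 134 lower at kept sites. In both directions together these were 114 of 673 and 235 of 1485 peaks, beside 14437 of all 123372 peaks tested. The median log2 fold change was -0.04 at lost and -0.02 at kept sites, beside -0.01 over all peaks. Among peaks with a mean log2 CPM of 0 to 2 the medians were -0.24 at lost and -0.22 at kept sites, beside -0.05 for all such peaks. With a mean of 2 to 4 they were -0.07, -0.06 and 0.01, and with a mean of 4 to 6 they were 0.02, 0.03 and 0.04.

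The lost site whose ATAC-seq peak rose was at the promoter of Sult1a1, a phenol sulfotransferase, 13 bp from its TSS, with PU.1 pileups of 8 and 9 in OCR. ATAC-seq gave 8.46, 9.76, 8.35 and 7.07 CPM in OCR and 12.7 and 12.9 in OCRRF, without overlap. The log2 fold change was 0.60 (adjusted p = 0.046, edgeR), a call lost with the replicate number as a block (adjusted p = 0.180) and without OCR replicate 1, 3 or 4 or either OCRRF replicate (adjusted p 0.073 to 0.247). Sult1a1 RNA rose as well, from 148.7, 185.2, 201.3 and 200.7 CPM in OCR to 343.9 and 303.2 in OCRRF (log2 fold change 0.81 ± 0.12, adjusted p = 1.95e-05, edgeR). The ATAC-seq peak that fell lay 966.6 kb from the nearest TSS, that of the adhesion receptor Adgrl2. It had 21.8, 19.0, 21.1 and 15.2 CPM in OCR and 10.1 and 12.8 in OCRRF (log2 fold change -0.76 ± 0.14, adjusted p = 0.003, edgeR), and the call was lost without OCRRF replicate 1 (adjusted p = 0.157).

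RNA fell more often than it rose near both lost and kept sites, as over all genes. The RNA-seq comparison had 4 OCR and 2 OCRRF libraries of 23497989 to 34385179 counts, and 0.694% of the 32577 genes tested rose and 2.71% fell in OCRRF. Of 523 genes tested near lost sites, 6 (1.15%) rose and 40 (7.65%) fell, and of 1078 near kept sites, 23 (2.13%) rose and 71 (6.59%) fell. Both sets were more highly expressed, with a median log2 CPM of 5.43 near lost and 5.48 near kept sites against 3.73 for protein-coding genes. Among genes with a mean log2 CPM of at least 4, 11.0% of 355 genes near lost sites, 8.91% of 752 near kept sites and 7.82% of all 9258 protein-coding genes fell, with median log2 fold changes of -0.16, -0.15 and -0.16. The shares that rose were 1.13%, 2.13% and 1.08%. The counts of lower genes moved with the tool and the libraries, as they did over all genes. Over all genes, 884 fell in edgeR and up to 1799 with 1 library left out, and the DESeq2 count is given below. Near lost sites there were 84 lower genes with DESeq2, 23 without OCR replicate 2, 79 without OCR replicate 3, 64 without OCR replicate 4, 11 without OCRRF replicate 1 and 17 without OCRRF replicate 2. Near kept sites there were 157 with DESeq2, 34 without OCR replicate 2, 141 without OCR replicate 3, and 21 without OCRRF replicate 1 and also without OCRRF replicate 2. With 1 library left out, the higher genes ranged from 1 to 14 near lost sites and from 11 to 48 near kept sites, lowest without OCRRF replicate 1 and highest without OCR replicate 3.

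Of the 10 genes near lost sites with the smallest adjusted p, 9 fell and Sult1a1 rose, and the sites of 5 of them lay within 1 kb of the TSS. E2f8, a cell cycle E2F factor, fell from 26.2, 23.9, 20.0 and 15.5 CPM in OCR to 4.70 and 6.78 in OCRRF (log2 fold change -1.90 ± 0.21, adjusted p = 6.87e-08, edgeR). Its lost site had 7 and 7 fragments and lay 0.8 kb upstream. Mcm7, a subunit of the replicative helicase, fell from 244.7, 263.3, 207.2 and 184.6 CPM to 123.8 and 111.9 (-0.93 ± 0.13, adjusted p = 9.00e-06, edgeR), beside a site of 8 and 10 fragments. Mad2l1, a spindle checkpoint protein, fell from 56.6, 58.4, 48.2 and 44.0 CPM to 24.7 and 25.6 (-1.04 ± 0.14, adjusted p = 4.65e-06, edgeR), beside a site of 9 and 8. The OCR and OCRRF values of these 3 genes did not overlap. Also lower were Ticrr (log2 fold change -1.43) and Timeless (-1.25), which act in DNA replication, Rpa2 (-0.83), of the complex that coats single-stranded DNA, Tedc1 (-1.21), Tuba8 (-1.35) and Add3 (-0.76). The lost sites of these 9 genes had 7 to 15 fragments in OCR. Their ATAC-seq peaks did not pass the test, with adjusted p of 0.065 (Tuba8) or higher in edgeR.

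**Figure D5:**
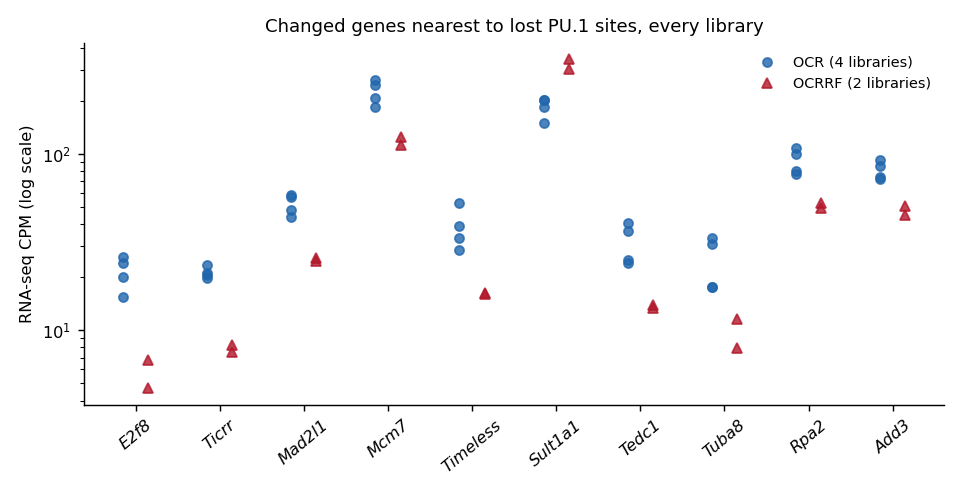
RNA level in CPM, on a log axis, of genes near lost PU.1 sites in each OCR and OCRRF library, 1 point per library. E2f8, Mcm7 and Mad2l1 are lower in both OCRRF libraries than in all 4 OCR libraries, and Sult1a1 is higher.

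Near the gained sites, Palld, an actin-associated protein, rose (log2 fold change 0.64, adjusted p = 0.003, edgeR) and Slc25a5, a mitochondrial ADP/ATP carrier, fell (-0.59, adjusted p = 0.007, edgeR), both calls lost without OCRRF replicate 1. They were the 2 genes called of 12 tested, beside 0.694% of all genes tested that rose and 2.71% that fell.

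The summed RNA of 9 HSC markers was 3815 to 4550 CPM in OCR and 3676 to 3858 in OCRRF, with 1 of 9 higher (Ly6a) and 1 lower (Kit). Kit was the largest part of this sum, at 1633 to 2029 CPM in OCR and 1339 and 1248 in OCRRF. Megakaryocyte markers summed to 259 to 373 CPM in OCR and 215 to 221 in OCRRF, with 3 of 4 lower. Macrophage markers were at 20.2 to 27.3 and 15.7 to 15.8 CPM, erythroid markers at 20.7 to 33.2 and 27.9 to 64.0, granulocyte and monocyte markers at 7.31 to 74.9 and 58.8 to 59.1, and T cell markers at 2.48 to 4.31 and 3.81 to 5.01. Their part in the PU.1 and RNA differences was not tested.

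Lists of hematopoietic genes showed how the classes fell on PU.1 partners and targets. Over all 2293 OCR sites within 50 kb of a TSS, 50.9% were kept and 23.9% lost. Among 16 genes for PU.1 and its partners and opponents, 5 had a site. Runx1, a core HSC factor, had 3 sites and kept one, in an intron, with 18 and 16 fragments in OCR and 7 and 12 in OCRRF, and Spic, an ETS relative of PU.1, kept one with 14 and 14 in OCR and 10 and 10 in OCRRF. Cebpa, a myeloid C/EBP factor, had a lost site of 6 and 10. Gfi1b, a transcriptional repressor that acts in the erythroid and megakaryocyte lines, had one of 11 and 9. Gfi1b RNA fell (log2 fold change -0.75 ± 0.17, adjusted p = 0.005, edgeR), a call lost with DESeq2 and without OCRRF replicate 1. Of the 16 genes, 3 rose in RNA (Gfi1, Cebpb and Jun) and 2 fell (Gfi1b and Gata1). In the same libraries, 3 of the 4 megakaryocyte markers above were lower. Beside this list and those below, 0.694% of all 32577 genes tested rose and 2.71% fell. An unadjusted p under 0.05 was found in edgeR for 5501 of all genes tested. Among protein-coding genes with a mean log2 CPM of at least 4, 1.08% rose and 7.82% fell.

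Of 34 myeloid and Fc receptor genes, 11 had 18 sites, of which 11 were kept and 3 lost. Tyrobp, the adaptor of activating myeloid receptors, kept a site with 43 and 26 fragments in OCR and 20 and 24 in OCRRF, whose sequence above holds the longer motif. Syk, a kinase of the same pathway, kept one with 27 and 31 in OCR and 16 and 13 in OCRRF, and Vav1, a guanine exchange factor, one with 27 and 34 in OCR and 18 and 9 in OCRRF. The pileups of these 3 sites were lower in OCRRF with both antibodies. As fold enrichment the Tyrobp site was not lower with replicate 2, at 14.2 in OCR and 14.6 in OCRRF. A further kept site in the UTR of Syk had 14 and 17 in OCR and 17 and 15 in OCRRF. Syk RNA fell (log2 fold change -0.68 ± 0.13, adjusted p = 0.001, edgeR), a call lost without OCRRF replicate 1. In RNA 1 of the 34 fell, Syk, and 1 rose, Csf2rb, a call also lost without OCRRF replicate 1. Ptprc, which encodes CD45, kept 3 sites. Ncf1, which encodes a subunit of the phagocyte NADPH oxidase, kept 2 sites and lost 2, one of them 17 bp from its TSS with 15 and 18 fragments and one 7.3 kb away with 12 and 13, and a kept and a lost stretch of it each held 3 cores and no longer motif.
Ncf1 kept, chr5:134233279-134233379: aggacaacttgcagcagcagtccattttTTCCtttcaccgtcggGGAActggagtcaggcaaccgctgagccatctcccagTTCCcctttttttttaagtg
Ncf1 lost, chr5:134236913-134237013: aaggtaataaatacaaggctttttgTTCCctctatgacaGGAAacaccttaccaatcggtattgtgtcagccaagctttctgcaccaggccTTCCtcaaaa

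Among 18 HSC factors, 9 had 12 sites, 5 kept and 4 lost. Meis1 kept a site of 47 and 38 fragments in OCR with 30 and 27 in OCRRF, and Lyl1 one of 35 and 25 with 27 and 19. Mecom, which encodes EVI1, had both kinds. Its kept site had 37 and 27 fragments in OCR and 27 and 20 in OCRRF, and its lost site 20 and 12 in OCR, although the stretches of both hold the longer motif. Hhex and Etv6 kept a site, and Zeb2, Erg and Fli1 had lost sites. In RNA, 0 of 18 HSC factors rose and 3 fell (Myb, Zfpm1 and Kit) in edgeR, DESeq2 called 0 and 5, and unadjusted p-values under 0.05 numbered 1 and 5. Of 9 B lymphoid genes, 3 had 5 sites, 3 of them kept. Bcl11a kept one of 34 and 29 fragments in OCR with 23 and 21 in OCRRF, Ikzf1 kept 2 and its RNA fell (log2 fold change -0.45 ± 0.12, adjusted p = 0.026, edgeR, lost without OCR replicate 2 or either OCRRF replicate), and Blnk, a B cell receptor linker, had a lost site of 8 and 10. In RNA 1 of the 9 rose, Pax5, a B cell marker, and its call was lost when any library but OCR replicate 3 was left out.

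Of 21 cell cycle genes, 2 had a site (Ccnd2 and Mki67), with 0 of 3 sites lost, while 14 of the 21 fell in RNA and 0 rose in edgeR, with a median log2 fold change of -0.85. DESeq2 also called 14 and 0, and unadjusted p-values under 0.05 numbered 16 lower and 1 higher. This list was chosen with earlier results of these data known. Of the 5 receptor and signalling genes taken from the study, 4 rose in RNA, and the study chose them on these samples. Of the 5, Kdr, the VEGF receptor VEGFR2, had a site, kept with 21 and 18 fragments in OCR and 13 and 15 in OCRRF. Kdr RNA rose from 14.6, 18.4, 21.4 and 27.5 CPM in OCR to 50.6 and 34.2 in OCRRF (log2 fold change 1.05 ± 0.17, adjusted p = 8.53e-05, edgeR), a call lost without OCRRF replicate 1. The RNA of Kdr was higher and its PU.1 pileup lower in the refed samples. Most of the 1500 strongest OAL sites with a peak in both diets also had lower pileups in OCRRF, with median ratios of 0.682 and 0.693. The rank of the Kdr site went from 910 in OCR to 1109 in OCRRF with replicate 1 and from 812 to 577 with replicate 2.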

How the data were processed

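The authors trimmed the PU.1 ChIP-seq reads with cutadapt, aligned them with BWA to mm10, removed duplicates and called peaks with MACS2 on each library. The deposited values of a peak are a score, a ratio (its fold enrichment over the local background) and its p-value and q-value as −log10. The authors also deposited counts of ATAC-seq reads in consensus peaks and RNA-seq counts per gene (STAR and featureCounts), from 4 OCR and 2 OCRRF libraries each. The study's legends count the RNA-seq libraries as mice. For ATAC-seq and PU.1 the sources used here do not say whether libraries came from separate animals, so the ATAC-seq p-values measure the spread between these samples, which may be technical.

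Pileup and local background were solved from the −log10 p and fold enrichment under the Poisson model of MACS2. Ranks followed −log10 p. Sites and genes were joined through the protein-coding genes of the basic GENCODE annotation of GRCm38. This used Python 3.11.15 with pandas 2.3.3, pysam 0.24.0 and SciPy 1.17.1. Counts were filtered with filterByExpr, scaled with TMM and tested with the quasi-likelihood test of edgeR 4.0.16 in R 4.3.3, adjusted by Benjamini-Hochberg over all peaks or genes tested, and the code was tested on simulated data. An ATAC-seq call needed an adjusted p under 0.05, a mean log2 CPM above 1.5 and a change of over 1.5-fold, and an RNA-seq call an adjusted p under 0.05 and a change of over 1.2-fold.

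A site was tied to the nearest TSS, within 50 kb for gene counts. Genes named are those of the 10 highest lost, 10 highest kept and 5 highest gained sites by mean rank, the called ATAC-seq peaks at lost sites, the 10 genes near lost sites with the smallest adjusted p, and members of 6 gene lists that have a site. Palld, Slc25a5 and list genes without a site were named after their values were seen. Some items of the gene and marker lists are not reported here. The members and lists were chosen with earlier results of these data known. Alternatives were other overlap rules, matched ranks, motif windows, DESeq2 1.42.0, DESeq2 size factors, no count filter, the replicate number as a block, and each library left out.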

Additional observations from a re-analysis of the deposited data

How the results depend on the processing

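The share of OCR peaks with an OCRRF peak was 44.0% (replicate 1) and 48.1% (replicate 2) for summits within 100 bp, 52.2% and 55.3% for OCR peaks with a −log10 q of at least 5, and 71.6% and 70.7% at matched ranks. Lost sites numbered 154 at matched ranks, 148 with the same number of peaks from all 4 libraries (chosen after seeing the data), and 1929 to 2984 with either replicate alone, where 1 antibody decides. Matched-rank overlap was 78.0%, 77.7% and 74.7% for the 500, 1000 and 2000 highest peaks of replicate 1 and 72.8% and 73.6% for the 500 and 1000 highest of replicate 2. The height ratio of replicate 1 was 0.690 as pileup over background, also chosen after seeing the data. Within 50 bp of the summit 39.9% of kept sites held the longer motif, and the core was in 95.3% of lost and 96.7% of kept sites, against 100% and 99.5% within 200 bp.

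The replicate number as a block gave 475 higher and 289 lower ATAC-seq peaks and 1003 higher and 2434 lower genes. In this fit OCR replicates 3 and 4 had no OCRRF partner and so did not add to the diet estimate. The deviations of libraries of the same number correlated at -0.02 in ATAC-seq and at -0.12 and -0.14 in RNA-seq. With 2 OCRRF libraries, whose deviations from their mean mirror each other, these values cannot decide whether libraries of the same number were paired. DESeq2 gave 2178 lower genes. With 1 library left out, calls ranged from 66 to 221 higher and 24 to 146 lower ATAC-seq peaks, and from 61 to 956 higher and 291 to 1799 lower genes. ATAC-seq counts moved most without OCR replicate 1 or 2 or either OCRRF replicate. RNA-seq counts were highest without OCR replicate 3 and lowest without OCRRF replicate 1, and also moved by over 1.5 times without OCR replicate 1, 2 or 4 or OCRRF replicate 2. A lone OCRRF library is assumed to vary like the OCR group. The cause of these changes was not tested. Of 429 values of 43 named genes, 390 kept their call, 38 lost it, 1 (Spi1 with DESeq2) gained it and 0 changed sign, and of 59 values of 6 named ATAC-seq peaks 52 kept it and 7 lost it.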
